A study of Mus musculus with 48 samples.

Results

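The 8 genes described here cover the glucocorticoid receptor (Nr3c1), genes that the activated receptor is known to induce (Tsc22d3, Fkbp5, Sgk1, Zbtb16), the enzymes that activate or inactivate glucocorticoids inside a cell (Hsd11b1, Hsd11b2) and the enzyme of the first step of steroid synthesis (Cyp11a1). They were chosen by symbol, and each symbol matched 1 of the 54532 genes in the count table. All 8 were among the 21986 genes with enough counts to be tested. Fkbp5, Zbtb16, Sgk1 and Tsc22d3 had high RNA levels on the day of birth and low levels by day 8 in both ends of the small intestine. Fkbp5 and Sgk1 were high again at week 3 and fell by week 4, in both regions. Nr3c1 RNA rose between day 0 and week 4 by 1.72 times in the duodenum and 2.30 times in the ileum, and did not follow the rises and falls of the induced genes.

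The series followed the small intestine of untreated C57Bl/6J mice over the first weeks after birth, an age at which necrotizing enterocolitis, a disease with inflamed and dying bowel tissue, can arise. By the labels, total RNA was taken from whole-thickness tissue at day 0, 2, 4, 6 and 8 and at week 2, 3 and 4. Each piece was either 2 cm of duodenum below the stomach outlet or 2 cm of ileum above the caecum. Males and females were used, litters were split over ages, pups were weaned onto chow at day 21, and no genetic change or treatment was applied to any group. The labels call the housing standard germ-free, which was not checked here. The 2 regions and 8 ages make 16 groups of 3 samples, and the labels do not say whether samples came from separate animals, so p-values measure the spread between these samples.

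Glucocorticoids, mainly corticosterone in mice, enter cells and bind a receptor that is held ready in the cytoplasm by heat shock proteins and their partners. The bound receptor moves to the nucleus and binds DNA at a palindrome of a pair of short motifs, where it activates genes such as Fkbp5, Tsc22d3, Zbtb16 and Sgk1. Hsd11b1 regenerates corticosterone from its inactive form and Hsd11b2 inactivates it, while Cyp11a1 cuts the side chain of cholesterol to make pregnenolone. In mice and rats, blood corticosterone is low during much of the suckling period and rises before weaning, glucocorticoids speed the maturation of the suckling gut, and the intestinal epithelium can itself make corticosterone.

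Expression levels are given as CPM, the estimated counts of a gene scaled to a common library size, after correction with TMM factors (trimmed mean of M values). They were not divided by transcript length, so levels are not compared between genes. The samples hold 16824021 to 65042327 counts, with a median of 32786601.5. The day 6 samples numbered 3 were left out of both regions, because their region genes were the opposite of their labels. Pdx1, which encodes a regulator of duodenal identity, was at 0.115 CPM in the sample labelled duodenum and at 14.5 CPM in the one labelled ileum. The remaining day 6 samples held 11.1 and 11.8 CPM of it in the duodenum and 0.0871 and 0.422 CPM in the ileum. That left 46 samples, with 2 per region at day 6. A few further libraries stood apart. The day 0 duodenum samples numbered 2 and 3 held both Xist, made by female cells, at 745 and 816 CPM, and the Y-linked Ddx3y, at 21.1 and 25.1 CPM. For the ileum sample of week 4 numbered 1, 5 genes of gut position summed to 198 CPM. The remaining pair of that group had sums of 2022 and 2328 CPM. The sum takes genes of the proximal and distal ends together (Pdx1, Gata4, Fabp6, Slc10a2 and Fgf15). It does not tell which end's genes were low. Calls of the 8 genes that changed without these libraries, and list counts that moved by over 1.5 times, are given both ways. At day 6, day 8 and week 4 every sample held Xist above 100 CPM and no Ddx3y, while the other ages held samples with and without Xist. Sex was thus not balanced over the ages compared, and the main fit did not adjust for it. The labels describe the whole wall. Across groups, the sum of 8 epithelial markers had means of 3462 to 10340 CPM, and that of 6 smooth muscle markers had means of 5.72 to 108 CPM. The muscle sums were low for a whole wall and differed widely between groups, and how much muscle each piece held was not measured.

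Promoters of the induced genes are shown because the receptor's binding palindrome can be read in them. RefSeq promoter windows on GRCm38.p6, from 250 bases before to 50 after an annotated start, were at hand for 5 of the 8 genes, in 13 windows. They were searched on both strands for the 6-base motif AGAACA, read on the other strand as TGTTCT, and for the full palindrome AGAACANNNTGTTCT, which holds the motif on each strand. The motif was present in 19% of all 32851 windows. The full palindrome was present in 3 of them, or 0.00913%, and 1 of those belongs to Sgk1. It lies at chr10:21993701-21993715, 175 bases before a start at 21993890 and 951 bases before a further start at 21994666. Of the 6 Sgk1 windows 3 held the motif, as did 1 of 3 Tsc22d3 windows, and the single windows of Fkbp5 and Hsd11b1 and both of Cyp11a1 held none. The 250 bases before 1 start of each of Sgk1, Tsc22d3 and Fkbp5 follow, with the motif and the palindrome in capitals. They are chr10:21993640-21993889 on the plus strand, chrX:140600523-140600772 on the minus strand and chr17:28486150-28486399 on the minus strand.
Sgk1: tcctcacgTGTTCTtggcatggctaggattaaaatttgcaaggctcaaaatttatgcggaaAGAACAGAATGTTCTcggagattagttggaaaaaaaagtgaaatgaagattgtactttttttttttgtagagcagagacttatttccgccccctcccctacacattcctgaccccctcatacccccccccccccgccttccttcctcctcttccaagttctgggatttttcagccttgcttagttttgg
Tsc22d3: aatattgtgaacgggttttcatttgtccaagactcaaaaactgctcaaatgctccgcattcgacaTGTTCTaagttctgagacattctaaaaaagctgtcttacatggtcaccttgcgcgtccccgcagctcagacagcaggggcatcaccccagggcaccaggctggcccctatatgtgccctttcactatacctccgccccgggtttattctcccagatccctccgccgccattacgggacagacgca
Fkbp5: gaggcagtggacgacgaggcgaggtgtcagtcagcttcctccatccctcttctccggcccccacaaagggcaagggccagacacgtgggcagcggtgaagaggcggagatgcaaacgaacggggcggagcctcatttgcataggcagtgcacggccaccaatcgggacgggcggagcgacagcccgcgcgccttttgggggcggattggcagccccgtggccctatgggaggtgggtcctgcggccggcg
The Sgk1 stretch holds the palindrome and a separate motif nearer its 5′ end, the Tsc22d3 stretch a single motif, and the Fkbp5 stretch neither. A match is a description of the letters and not a measured binding site, and a window without a match says nothing of sites elsewhere in the gene.

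Nr3c1 (ENSMUSG00000024431, 18:39410545-39519421 on the minus strand, GRCm38) encodes the receptor. In the duodenum its samples, in label order, stood at 116, 111 and 107.5 CPM at day 0, at 171, 167 and 174 CPM at day 8 and at 158, 220 and 196 CPM at week 4. In the ileum they stood at 94.7, 109 and 84.1 CPM at day 0, at 114, 125 and 113 CPM at day 8 and at 248, 210 and 203 CPM at week 4. All samples of week 4 were above all samples of day 0 in both regions, and the receptor RNA was present at 64.1 CPM or more in every sample. Week 4 against day 0 gave a log2 change of 0.78 ± 0.19 SE in the duodenum (edgeR adjusted p = 0.00102) and 1.20 ± 0.19 SE in the ileum (adjusted p = 2.43e-06).

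The steps of Nr3c1 that were called differed between regions, but the interaction of region and age was not called (edgeR adjusted p = 0.146; 7.39e-05 without day 4). In the duodenum the day 8 level was already 1.53 times the day 0 level, a log2 change of 0.62 ± 0.19 SE (edgeR adjusted p = 0.00818). From day 6 on, duodenal group means lay between 171 and 191 CPM, and the later steps of week 2, week 3 and week 4 gave log2 changes of 0.08, 0.07 and 0.02, none of them called. In the ileum the change to day 8 was 0.29 ± 0.19 SE and was not called (edgeR adjusted p = 0.305), although the groups did not overlap. Ileal Nr3c1 was 132 to 137 CPM at week 2 and 170 to 214 CPM at week 3, a log2 change of 0.53 ± 0.19 SE (adjusted p = 0.0336). That call was lost without any of 5 of the 6 samples compared (edgeR adjusted p = 0.0745 to 0.118). Without the day 0 duodenum samples numbered 2 and 3, the duodenal change at day 8 was 0.45 (edgeR adjusted p = 0.258) and that at week 4 was 0.73 (adjusted p = 0.0623). That fit has 1 day 0 sample left, which is assumed to vary like the other groups, and leaving out single samples kept both calls.

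Fkbp5 (ENSMUSG00000024222, 17:28399094-28517527 on the minus strand) encodes FKBP51, a receptor-bound co-chaperone that lowers the receptor's affinity for hormone and is strongly induced by it. In the duodenum its day 0 samples stood at 85.9, 214 and 286 CPM and its day 2 samples at 9.28, 10.8 and 10.9 CPM. In the ileum they stood at 77.3, 201 and 274 CPM at day 0 and at 10.6, 8.21 and 9.78 CPM at day 2. The day 0 mean was thus 18.9 times the day 2 mean in the duodenum and 19.3 times in the ileum, with no overlap, a step described here without a test.

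From day 2 to week 2 no sample exceeded 13.9 CPM in either region. At week 3 the duodenum samples stood at 168, 109 and 74.5 CPM and the ileum samples at 151, 100 and 62.0 CPM. At week 4 they were back at 14.7, 9.09 and 13.1 CPM and at 6.76, 11.6 and 13.6 CPM. Levels thus fall into a high set, day 0 and week 3, whose samples overlap, and a low set of the other 6 ages, with no overlap between the sets in either region.

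Fkbp5 was called at 3 of the 4 tested steps between ages. Day 8 against day 0 gave log2 fold changes of -4.09 ± 0.40 SE in the duodenum (edgeR adjusted p = 7.48e-10) and -4.78 ± 0.42 SE in the ileum (adjusted p = 2.47e-10). Week 3 against week 2 gave 4.15 ± 0.41 SE and 4.47 ± 0.42 SE (edgeR adjusted p = 7.62e-10 and 1.32e-10), which is 17.7 and 22.1 times by the means. Week 4 against week 3 gave -3.26 ± 0.39 SE and -3.29 ± 0.39 SE (edgeR adjusted p = 1.46e-07 and 1.28e-07). Without the day 0 duodenum samples numbered 2 and 3 the first duodenal fall was -3.01 (edgeR adjusted p = 2.09e-06). Week 2 against day 8 was not called, at -0.79 ± 0.37 SE and -0.50 ± 0.38 SE (edgeR adjusted p = 0.154 and 0.474), and was called in both regions when only the compared groups were fitted (adjusted p = 0.00604 and 0.0446). Annotated non-coding genes lie within Fkbp5, the highest of them at 8.76 CPM, and their reads could be counted with it.

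Zbtb16 (ENSMUSG00000066687, 9:48654297-48836222 on the minus strand) encodes the zinc finger repressor PLZF, a strongly inducible target of steroid receptors. In the duodenum it stood at 1.77, 9.97 and 22.0 CPM at day 0 and at 0.0220, 0.0843 and 0.228 CPM at day 8. Ileal levels lay at 2.00, 12.3 and 37.6 CPM at day 0 and at 0.220, 0.271 and 0.17 CPM at day 8. Every day 0 sample was above every later sample except those of week 3 in the duodenum, where levels were 2.94, 2.41 and 0.796 CPM. In the ileum week 3 stood lower, at 1.20, 0.965 and 0.579 CPM, and week 2 at 0.408, 0.233 and 0.458 CPM.

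Day 8 against day 0 gave log2 fold changes of -6.63 ± 0.94 SE in the duodenum (edgeR adjusted p = 6.75e-07) and -6.29 ± 0.93 SE in the ileum (adjusted p = 5.92e-06). Week 3 against week 2 gave 3.11 ± 0.86 SE in the duodenum (edgeR adjusted p = 0.00791), and 1.35 ± 0.84 SE in the ileum, which was not called (adjusted p = 0.252) although the samples did not overlap. Duodenal Zbtb16 was lower again at week 4, with a log2 change of -3.02 ± 0.84 SE (edgeR adjusted p = 0.0135), while the ileal difference of -1.09 ± 0.88 SE was not called (adjusted p = 0.462). Without the day 0 duodenum samples numbered 2 and 3, the duodenal fall to day 8 was smaller, at -4.07 ± 0.96 SE (edgeR adjusted p = 0.00187). The duodenal rise was lost without the week 2 sample numbered 3 (2.83, edgeR adjusted p = 0.0533). The duodenal fall was lost without the week 3 sample numbered 1 or the week 4 samples numbered 1 or 3 (adjusted p = 0.0646 to 0.0691). Zbtb16 had 0 to 1584 counts per sample, and its group means outside day 0 and week 3 were 0.557 CPM or less. The sizes of its changes, and the calls at the later steps, thus rest on few counts at those ages.

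Sgk1 (ENSMUSG00000019970, 10:21882184-21999903 on the plus strand) encodes a kinase that raises sodium uptake through epithelial channels and is induced through both the glucocorticoid and the mineralocorticoid receptor. In the duodenum it stood at 340, 463 and 466 CPM at day 0, at 102, 133 and 122 CPM at day 2 and at 43.0, 34.5 and 45.0 CPM at day 8. Its ileal levels lay at 344, 400 and 702 CPM at day 0, at 122, 134 and 128 CPM at day 2 and at 70.0, 88.7 and 87.3 CPM at day 8. Unlike Fkbp5, its level was up by week 2, at 336, 207 and 255 CPM in the duodenum and 281, 220 and 281 CPM in the ileum. After day 0 its highest means were at week 3, at 489, 411 and 247 CPM and at 641, 565 and 477 CPM, and at week 4 stood at 43.9, 73.2 and 105 CPM and at 117, 102 and 117 CPM. In the duodenum week 3 overlapped day 0 and week 2, and in the ileum every week 2 sample lay below those of day 0 and week 3.

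Sgk1 fell from day 0 to day 8, with log2 changes of -3.37 ± 0.30 SE (duodenum) and -2.55 ± 0.29 SE (ileum) (edgeR adjusted p = 5.69e-11 and 3.09e-08). It rose from day 8 to week 2 by a log2 change of 2.70 ± 0.29 SE in the duodenum (edgeR adjusted p = 3.48e-07) and of 1.67 ± 0.28 SE in the ileum (adjusted p = 0.00102). From week 2 to week 3 it rose in the ileum, with 1.11 ± 0.28 SE (edgeR adjusted p = 0.00206), and the duodenal change of 0.52 ± 0.27 SE was not called (adjusted p = 0.201). By week 4 it fell, with -2.37 ± 0.29 SE in the duodenum and -2.32 ± 0.29 SE in the ileum (edgeR adjusted p = 1.24e-07 and 1.47e-07).

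Tsc22d3 (ENSMUSG00000031431, X:140539528-140600659 on the minus strand) encodes GILZ, a leucine zipper protein that carries part of the anti-inflammatory action of glucocorticoids. In the duodenum it stood at 96.7, 118 and 138 CPM at day 0, at 51.7, 45.7 and 53.0 CPM at day 2 and at 29.3, 28.8 and 33.6 CPM at day 8. Ileal levels lay at 134, 129 and 212 CPM at day 0, at 43.7, 48.4 and 63.5 CPM at day 2 and at 39.6, 42.4 and 42.1 CPM at day 8. Day 0 lay above day 2, and day 2 above day 8, without overlap in both regions. Levels at week 2 were 98.4, 92.5 and 80.8 CPM in the duodenum and 63.1, 57.0 and 64.6 CPM in the ileum, all above day 8. At week 3 they were 62.0, 71.4 and 58.8 CPM and 48.3, 81.3 and 53.9 CPM, so that Tsc22d3 RNA was not above its week 2 range in the duodenum at the age when Fkbp5 RNA was high.

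The fall from day 0 to day 8 had a log2 change of -1.94 ± 0.24 SE in each region (edgeR adjusted p = 3.20e-08 and 1.68e-07). The duodenal rise to week 2 had a log2 change of 1.57 ± 0.24 SE (edgeR adjusted p = 6.14e-05), and the ileal change of 0.57 ± 0.23 SE was not called (adjusted p = 0.134). Neither region had a called change from week 2 to week 3, at -0.50 ± 0.23 SE and -0.01 ± 0.23 SE. The ileal fall from week 3 to week 4, at -0.70 ± 0.23 SE (edgeR adjusted p = 0.0349), was lost without the week 3 sample numbered 2 (-0.44, adjusted p = 0.281) and without the week 4 samples numbered 2 (-0.45, adjusted p = 0.232) or 3 (-0.59, adjusted p = 0.151). It was also lost with the sex index (edgeR adjusted p = 0.0983) and with only the compared groups (adjusted p = 0.347). Without the week 4 sample numbered 1, whose summed region genes were low, the fall was larger, at -1.25 ± 0.22 SE (edgeR adjusted p = 6.98e-05).

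**Figure D1:**
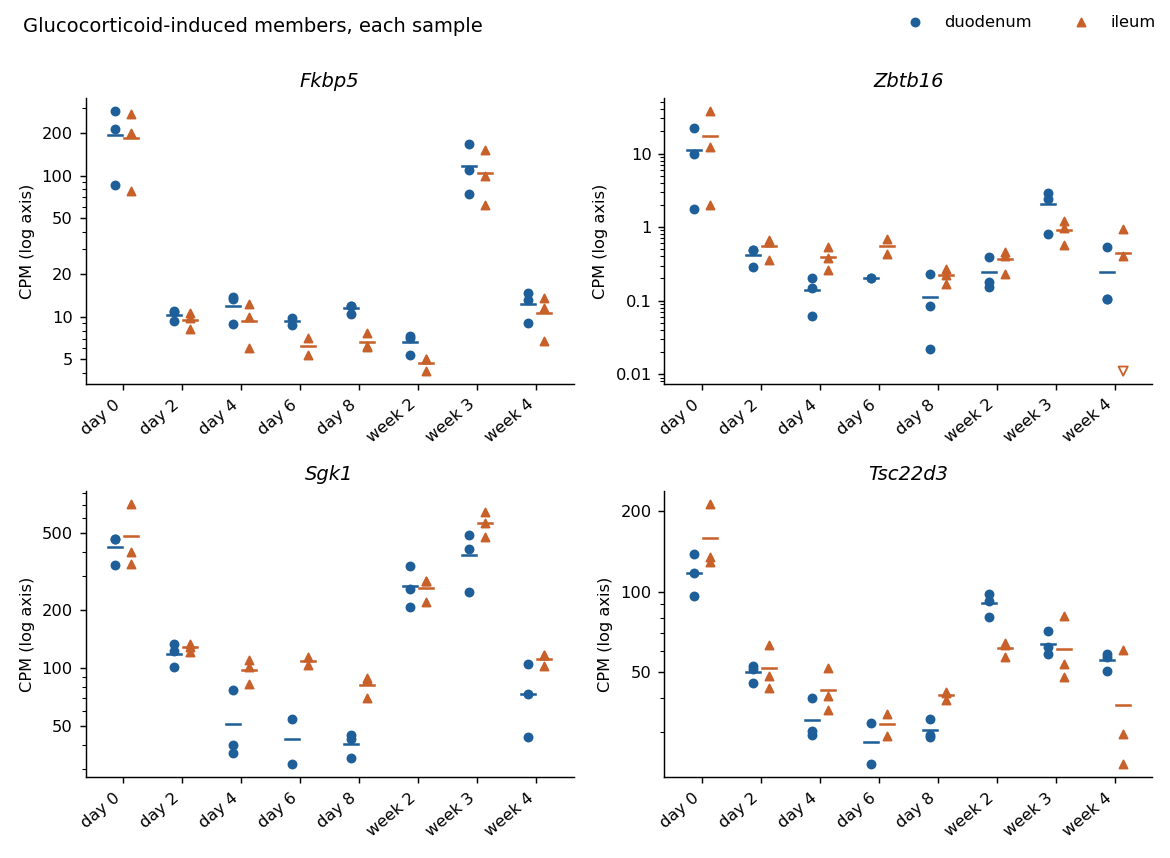
Levels of Fkbp5, Zbtb16, Sgk1 and Tsc22d3 in CPM on a log axis (vertical) at the 8 ages (horizontal), with each point 1 sample (circles duodenum, triangles ileum), a short line at each group mean and an open triangle for the 1 sample without Zbtb16 counts. Fkbp5 points lie at 62.0 CPM or higher at day 0 and week 3 and at 14.7 CPM or lower at the other ages.

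Counted over the 8 genes, the age effect was called for 7 in the duodenum, all but Hsd11b1, and for 8 in the ileum. The share called among all tested genes was 67.4% in the duodenum and 58.7% in the ileum, so that most genes of this tissue changed with age. For day 8 against day 0, 6 were called in the duodenum, 2 higher and 4 lower, against 41.2% of all genes (22% higher and 19.2% lower). In the ileum 4 were called, all of them lower and all of them receptor-induced genes, against 19.3% of all genes (8.56% higher and 10.7% lower). Week 2 against day 8 had 2 called in the duodenum (Sgk1 and Tsc22d3, both higher) against 15.7% of all genes (6.75% higher and 8.93% lower). In the ileum 1 was called (Sgk1, higher), against 6.64% (4.17% higher and 2.47% lower). Week 3 against week 2 had 3 called in the duodenum, 2 higher and 1 lower, against 18.3% of all genes (7.7% higher and 10.6% lower). In the ileum it had 5, 4 higher and 1 lower, against 26.8% (12.9% higher and 13.9% lower). Week 4 against week 3 had 3 called in the duodenum, all lower, against 12.7% of all genes (7.75% higher and 4.96% lower). In the ileum it had 5, 1 higher and 4 lower, against 16.1% (8.26% higher and 7.81% lower). Over the whole span from day 0 to week 4, 7 were called in the duodenum, with 2 higher and 5 lower, against 40.5% of all genes (20.4% higher and 20.1% lower). In the ileum all 8 were called, with 3 higher and 5 lower, against 41.9% (21.5% higher and 20.4% lower).

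Fkbp5, Sgk1, Zbtb16 and Tsc22d3 ended lower at week 4 than at day 0 in both regions, with log2 changes of -3.99, -2.52, -5.47 and -1.08 in the duodenum and of -4.11, -2.10, -5.32 and -2.08 in the ileum (edgeR adjusted p = 3.79e-10 to 0.000256 and 2.35e-10 to 6.03e-06). Without the day 0 duodenum samples numbered 2 and 3, the duodenal fall of Tsc22d3 was not called (-0.79, adjusted p = 0.0662), and those of Fkbp5 and Zbtb16 were both -2.80 (adjusted p = 2.17e-06 and 0.0252). In bulk tissue, fewer cells of a type and less RNA per cell cannot be told apart. Marker sums of other cells moved over the same ages. Those of 6 crypt stem and Paneth cell markers had a mean of 413 CPM at day 0 and 4577 CPM at day 8 in the duodenum, and of 215 and 2054 CPM in the ileum. Those of 5 endothelial markers had means of 145 and 11.3 CPM in the duodenum and of 129 and 56.3 CPM in the ileum, and their part in the falls was not tested.

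**Figure D2:**
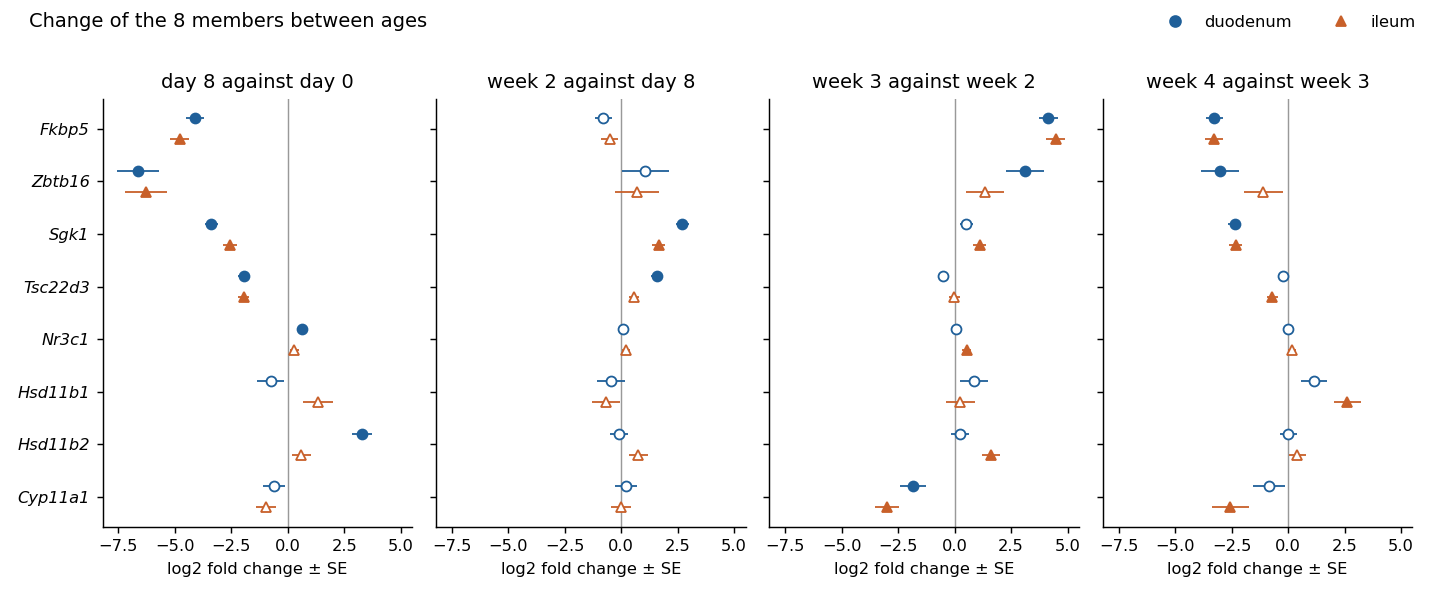
Log2 fold change with its SE (horizontal) of each of the 8 genes (vertical) for the tested steps between ages, in duodenum (circles) and ileum (triangles), with filled symbols where the edgeR adjusted p was under 0.05. Fkbp5 moves by -4.09 and -4.78 from day 0 to day 8, by 4.15 and 4.47 from week 2 to week 3 and by -3.26 and -3.29 from week 3 to week 4, while Nr3c1 stays within 0.62 of 0 in each of these steps.

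The steroid-handling enzymes behaved differently from the induced genes and from each other. Hsd11b2 (ENSMUSG00000031891, 8:105518755-105523988 on the plus strand), the inactivating enzyme that guards the mineralocorticoid receptor in sodium-absorbing epithelia, stood in the duodenum at 0.333, 0.410 and 0.383 CPM at day 0 and at 3.91, 3.08 and 4.06 CPM at day 8. From day 4 on, duodenal group means lay between 2.71 and 4.10 CPM. Its ileal levels lay at 1.63, 0.459 and 0.475 CPM at day 0, at 0.880, 1.36 and 1.56 CPM at day 8 and at 1.79, 2.44 and 2.32 CPM at week 2. Its ileal level then reached 7.40, 8.06 and 4.49 CPM at week 3, and by week 4 it was 3.38, 13.4 and 9.49 CPM. The duodenal samples of day 8 were thus all above those of day 0, and the ileal samples of week 3 all above those of week 2.

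The duodenal rise from day 0 to day 8 had a log2 change of 3.29 ± 0.45 SE (edgeR adjusted p = 2.62e-07), 9.82 times by the means. The ileal change over these ages, 0.60 ± 0.43 SE, was not called (edgeR adjusted p = 0.360), but was called without the day 0 sample numbered 1, at 1.45 (adjusted p = 0.0304). The ileal rise came from week 2 to week 3, with 1.60 ± 0.40 SE (edgeR adjusted p = 0.0019), when the duodenal change was 0.24 ± 0.39 SE (adjusted p = 0.736). By week 4 the level was 10.9 times that of day 0 in the duodenum and 10.3 times in the ileum (log2 3.45 and 3.38, edgeR adjusted p = 7.84e-08 and 4.08e-08). A test of the interaction of region and age was called for Hsd11b2 (edgeR adjusted p = 0.00115).

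Hsd11b1 (ENSMUSG00000016194, 1:193221634-193264075 on the minus strand), the activating enzyme, was near the limit of counting, with 1 to 38 counts per sample. In the duodenum it stood at 0.0832, 0.273 and 0.346 CPM at day 0 and at 0.287, 0.528 and 0.424 CPM at week 4. Ileal levels lay at 0.0739, 0.0835 and 0.0713 CPM at day 0, at 0.565 and 0.582 CPM at day 6 and at 0.583, 1.18 and 1.00 CPM at week 4. The duodenal samples of these ages overlapped, and the ileal ones did not. The duodenal age effect missed the threshold (edgeR adjusted p = 0.0591), and 4 single samples each brought it past when left out (without day 0 number 1, day 4 number 1, day 6 number 1 or day 8 number 2, adjusted p = 0.0108 to 0.0478), as did leaving out the day 0 duodenum samples numbered 2 and 3 (adjusted p = 0.0309). Ileal week 4 was above week 3 by 2.62 ± 0.61 SE (edgeR adjusted p = 0.00172) and above day 0 by 3.56 ± 0.64 SE (adjusted p = 1.70e-05). Sums of 7 T cell markers also rose in the ileum, from a mean of 2.72 CPM at day 0 and 4.41 CPM at week 3 to 62.2 CPM at week 4. Their sums at other ages, day 6 among them, and those of macrophage and mast cell markers were not set beside it. The part of any of these cells was not tested. The gene overlaps Lamb3 on the opposite strand, which reached 86.4 CPM, and whether counting used the strand is not given in the sources used here.

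Cyp11a1 (ENSMUSG00000032323, 9:58006411-58027023 on the plus strand) was higher in the ileum than in the duodenum until week 2. Its ileal samples stood at 8.35, 3.63 and 6.20 CPM at day 0, at 4.12, 7.46 and 4.04 CPM at day 2, at 14.5, 4.33 and 6.14 CPM at day 4 and at 8.21 and 14.5 CPM at day 6. They stood at 1.70, 3.70 and 3.99 CPM at day 8, at 3.89, 3.56 and 2.03 CPM at week 2, at 0.240, 0.724 and 0.241 CPM at week 3 and at 0, 0.0310 and 0.2004 CPM at week 4. In the duodenum the highest sample was 1.28 CPM, at day 0, and the week 4 samples stood at 0.104, 0.111 and 0.0707 CPM. Through week 2 every ileal sample was above every duodenal sample, and from week 3 the regions overlapped.

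Between week 2 and week 3 Cyp11a1 fell, with log2 changes of -2.99 ± 0.53 SE in the ileum (edgeR adjusted p = 2.36e-05) and -1.85 ± 0.57 SE in the duodenum (adjusted p = 0.0173). It fell further by week 4 in the ileum, at -2.56 ± 0.83 SE (edgeR adjusted p = 0.0276), and the whole ileal change from day 0 was -6.48 ± 0.69 SE (adjusted p = 5.76e-10). Levels at week 3 and week 4 were low in both regions, so the sizes of these changes rest on few counts. The duodenal fall to week 3 was lost without the week 3 sample numbered 1 (-1.61, edgeR adjusted p = 0.0981). The ileal fall to week 4 was lost without the week 3 sample numbered 2 (-1.85, adjusted p = 0.212) or the week 4 samples numbered 1 (-2.12, adjusted p = 0.0933) or 2 (-2.04, adjusted p = 0.163). Both falls were lost with the day 6 samples numbered 3 kept (edgeR adjusted p = 0.144 and 0.167), and the ileal one with the sex index (adjusted p = 0.0765).

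Markers of adrenal cortex cells, the classical site of Cyp11a1, are given beside it, and their part was not tested. Of 7 such markers, Cyp11b2, Mc2r and Nr5a1 had 12, 14 and 22 counts over all 46 samples and Cyp11b1 had 108. Akr1b7 and Star, which other tissues also make, had 32001 and 8108. They made up most of the sum of all 7, which was 3.11 to 126 CPM. Akr1b7 was highest in the duodenum at week 3, with a mean of 96.9 CPM, when Cyp11a1 was low. A non-coding gene on the same strand, Gm17322, overlaps Cyp11a1 and reached 13.2 CPM, and how reads that fit both were assigned is not given in the sources used here.

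**Figure D3:**
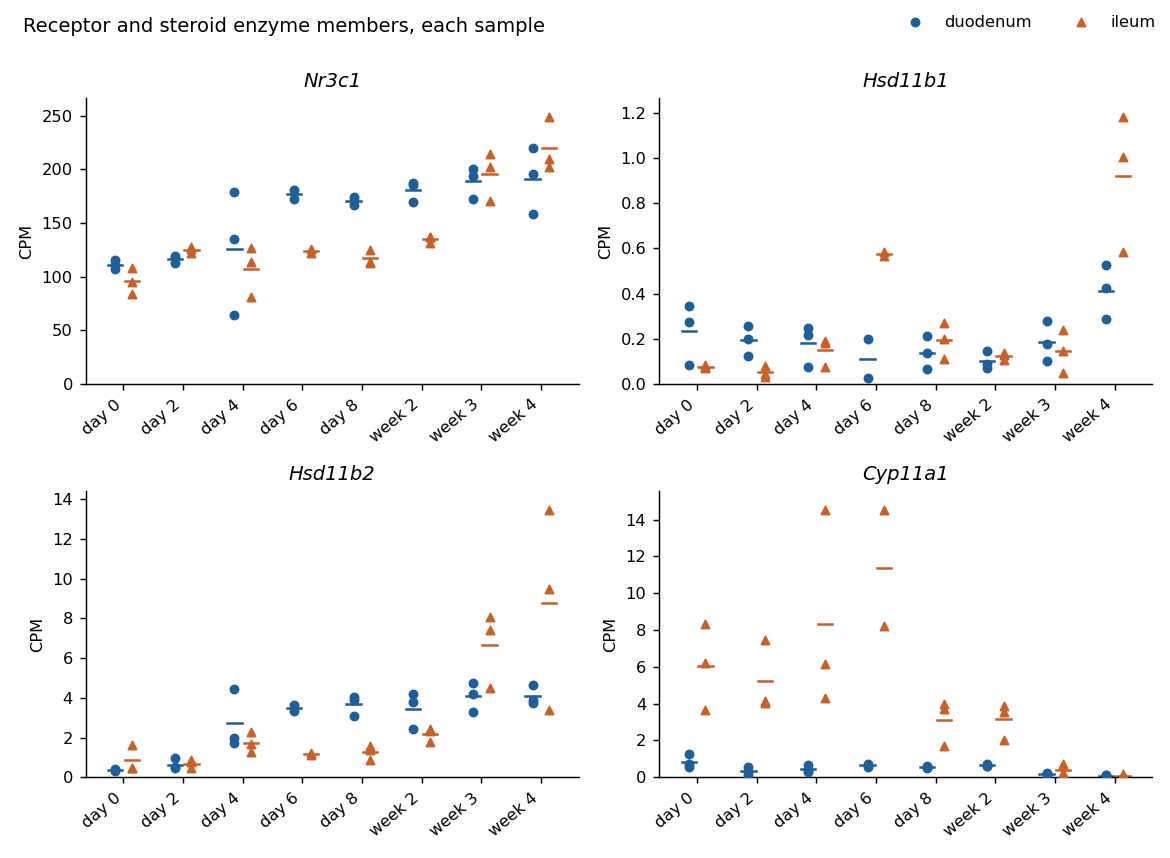
Levels of Nr3c1, Hsd11b1, Hsd11b2 and Cyp11a1 in CPM (vertical) at the 8 ages (horizontal), with each point 1 sample (circles duodenum, triangles ileum) and a short line at each group mean. Cyp11a1 reaches 14.5 CPM in the ileum and stays at or under 1.28 CPM in the duodenum, and Hsd11b2 climbs by day 8 in the duodenum and at week 3 in the ileum.

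Ileum and duodenum were then compared at single ages. Cyp11a1 was the 1 gene of the 8 called at day 0, with a log2 difference of 2.84 ± 0.48 SE, ileum over duodenum (edgeR adjusted p = 0.000236), against 6.1% of all genes called (2.97% higher and 3.14% lower in the ileum). It was also the 1 called at week 2, at 2.29 ± 0.48 SE (adjusted p = 0.00071), against 22.4% of all genes (10.6% higher and 11.8% lower). The day 0 call was lost when the duodenum samples numbered 2 and 3 were left out (2.24, edgeR adjusted p = 0.208), which left 82 of all genes called in place of 1342. At day 8, 4 of the 8 were called against 39.6% of all genes (17.1% higher and 22.6% lower), so the regions differed widely at that age. Sgk1 and Cyp11a1 were higher in the ileum, by 1.01 ± 0.28 SE and 2.50 ± 0.48 SE (edgeR adjusted p = 0.00418 and 0.000136). Nr3c1 and Hsd11b2 were lower there, at -0.54 ± 0.19 SE and -1.52 ± 0.41 SE (edgeR adjusted p = 0.0213 and 0.00343), and the Nr3c1 call was lost without any of 4 of the 6 samples (adjusted p = 0.0503 to 0.0661) and under relative log expression scaling (adjusted p = 0.0572).

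At week 3, with Fkbp5 and Sgk1 high in both regions, 0 of the 8 were called by edgeR, 0 had an unadjusted p under 0.05 and 0 were called by DESeq2, against 14.2% of all genes (7.28% higher and 6.9% lower). The regional log2 difference of Fkbp5 at that age was -0.17 ± 0.35 SE. At week 4, 1 was called against 28.4% of all genes (14.5% higher and 13.9% lower). This was Hsd11b2, at 1.10 ± 0.39 SE (edgeR adjusted p = 0.032), with overlapping samples, and the call was lost without any of 5 of the 6 samples (adjusted p = 0.0585 to 0.262), with the day 6 samples numbered 3 kept (0.0727) and with only the compared groups (0.0955). Without the ileum sample numbered 1, whose summed region genes were low, the Hsd11b2 difference was larger, at 1.47 ± 0.38 SE (edgeR adjusted p = 0.00391). The remaining ileal samples of Hsd11b2 then lay above all duodenal ones. In that fit Tsc22d3 was called lower in the ileum at week 4 (-1.11, edgeR adjusted p = 0.000291), against -0.56 ± 0.23 SE with the sample kept (adjusted p = 0.0655).

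Averaged over the 8 ages, 4 of the 8 differed against 62.1% of all genes (31.9% higher and 30.2% lower). Sgk1 and Cyp11a1 were higher in the ileum, by 0.59 ± 0.10 SE and 2.57 ± 0.29 SE (edgeR adjusted p = 3.96e-06 and 1.42e-09), and Nr3c1 and Fkbp5 were lower, at -0.20 ± 0.07 SE and -0.35 ± 0.13 SE (adjusted p = 0.013 and 0.0247). Without the day 0 duodenum samples numbered 2 and 3 the Fkbp5 difference was -0.18 and no longer called. Zbtb16 was then called higher in the ileum, at 0.99, against 0.64 and no call with them. The small differences of Nr3c1 and Fkbp5 were both lost with the day 6 samples numbered 3 kept (edgeR adjusted p = 0.082 and 0.0508).

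The interaction of region and age was called for 3 of the 8, Hsd11b1, Hsd11b2 and Cyp11a1, against 22.4% of all genes. Among the induced genes its edgeR adjusted p was 0.904 for Fkbp5, 0.589 for Zbtb16, 0.0776 for Sgk1 and 0.0506 for Tsc22d3, none called. That of Tsc22d3 lay at the threshold. It passed in 8 of 9 other settings (0.00557 with the replicate block, 0.142 with the day 6 samples numbered 3 kept) and in 15 of the 46 fits that left out a sample, with 0.000554 without the week 4 ileum sample numbered 1. That of Sgk1 passed in 3 of the 9 settings, the replicate block (edgeR adjusted p = 0.0163), without day 4 (0.0410) and DESeq2 (0.0209), and in 4 of the 46 fits.

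The rest of the pathway was read from 4 lists of genes. In the receptor machinery list, 13 of 14 genes were tested, all but Serpina6, the carrier of corticosteroids in blood. The age effect was called for 10 in the duodenum and 8 in the ileum, against 67.4% and 58.7% of all genes. Nr3c2, the mineralocorticoid receptor, which also binds corticosterone, rose between day 0 and week 4, in the duodenum from 11.4 ± 1.65 to 69.4 ± 15.6 CPM and in the ileum from 11.4 ± 1.14 to 59.6 ± 14.4 CPM (SD, n = 3 each), with log2 changes of 2.61 and 2.38. Most of that came between week 2 and week 3, with 1.38 and 1.44. H6pd, which supplies the reducing power that Hsd11b1 needs, fell over the same span from 215 ± 15.6 to 17.1 ± 4.68 CPM and from 272 ± 28.0 to 17.2 ± 3.71 CPM (SD, n = 3 each), with log2 changes of -3.65 and -3.98. Abcb1a, a pump that exports steroids and drugs, rose from week 2 to week 3 by 2.77 in the duodenum and 2.41 in the ileum. Hsp90ab1, a chaperone of the receptor, rose from day 0 to day 8 in the duodenum (1.57), together with Hsp90aa1, Fkbp4, Ptges3 and Stip1 (1.99, 1.84, 1.3 and 1.63). In the ileum the Hsp90ab1 change of 0.45 was not called.

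Among 18 further genes known to be induced by glucocorticoids in other tissues, all were tested, and the age effect was called for 18 in the duodenum and 16 in the ileum, against 67.4% and 58.7% of all genes. From day 0 to day 8, 9 were lower and 1 higher in the duodenum, with a median log2 change of -0.71 against -0.06 over all genes, of which 19.2% were called lower and 22% higher. With the day 0 duodenum samples numbered 2 and 3 left out, 4 were lower and 1 higher, and the median was -0.38 against -0.12. In the ileum 6 were lower and 0 higher, with a median of -0.37 against 0.01, and 10.7% of all genes were lower and 8.56% higher. The 6 ileal genes were Cdkn1c, Klf15, Il1r2, Pdk4, Per1 and Zfp36, which were called lower in the duodenum too. Of these, Klf15, Pdk4 and Per1 lost the duodenal call without the 2 day 0 samples (-0.42, -0.73 and -0.63, edgeR adjusted p = 0.781, 0.363 and 0.134). From day 8 to week 2, 7 were higher and 1 lower in the duodenum, where 6.75% of all genes were higher and 8.93% lower. In the ileum 3 were higher and 0 lower, where 4.17% were higher and 2.47% lower. The ileal 3 were Per1, Zfp36 and Errfi1, with log2 changes of 1.53, 0.95 and 0.94.

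From week 2 to week 3 the list did not move one way, with 4 higher and 5 lower in the duodenum (all genes 7.7% and 10.6%) and 4 higher and 2 lower in the ileum (all genes 12.9% and 13.9%). Klf15, a metabolic transcription factor, rose by 3.97 and 4.08 on the log2 scale, in the duodenum from 0.255 ± 0.187 to 3.93 ± 1.33 CPM and in the ileum from 0.264 ± 0.0263 to 4.50 ± 1.98 CPM (SD, n = 3 each). Angptl4, an inhibitor of lipoprotein lipase, rose by 2.72 and 4.98 and fell by week 4, with -2.53 and -2.76. Cdkn1c, a growth inhibitor, fell from day 0 to week 4, in the duodenum from 642 ± 200 to 10.4 ± 1.85 CPM and in the ileum from 642 ± 115 to 5.53 ± 0.323 CPM (SD, n = 3 each), with log2 changes of -2.88 and -2.46 from week 2 to week 3. Nfkbia, an inhibitor of NF-kB, rose at both late steps, by 0.56 and 0.72 in the duodenum and 0.81 and 1.06 in the ileum. From week 3 to week 4, 5 genes were lower and 3 higher in the duodenum (all genes 4.96% and 7.75%) and 8 lower and 2 higher in the ileum (all genes 7.81% and 8.26%). Per1 and Pdk4 were among the lower ones, at -1.70 and -3.04 in the duodenum and -1.95 and -3.42 in the ileum.

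**Figure D4:**
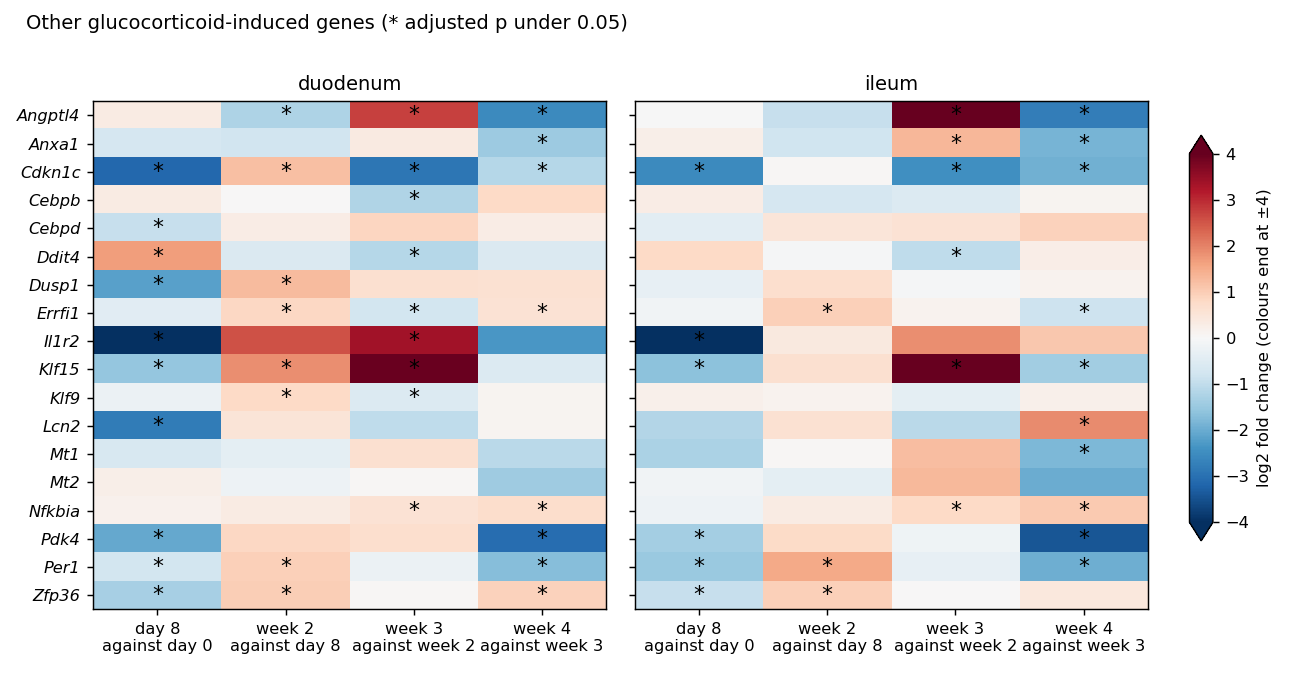
Log2 fold changes (colour) of 18 further glucocorticoid-induced genes (vertical) over 4 steps between ages (horizontal), for duodenum and ileum, with a star where the edgeR adjusted p was under 0.05. In the first step 9 are starred as lower in the duodenum and 6 in the ileum, and at week 3 Klf15 and Angptl4 stand out as higher in both regions.

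Of 8 genes of sodium transport under mineralocorticoid control, 7 were tested and 6 duodenal and 7 ileal age effects were called, against 67.4% and 58.7% of all genes. Atp1b1, a beta subunit of the sodium pump, rose from week 2 to week 3, with log2 changes of 1.53 in the duodenum and 2.49 in the ileum. Scnn1a, the alpha subunit of the epithelial sodium channel, fell at this step, with -2.54 and -2.28, to 5.69 ± 0.83 and 6.48 ± 0.323 CPM (SD, n = 3 each). Scnn1g, the gamma subunit, was in the duodenum at 0.498 ± 0.0731 CPM (SD, n = 3) at day 0 and had 0 counts in all samples of week 3 and week 4 there. Sgk1 and Scnn1a thus changed in opposite directions between week 2 and week 3 in the ileum, where both were called.

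In the steroid synthesis list 13 of 19 genes were tested, and the age effect was called for 13 in the duodenum and 11 in the ileum, against 67.4% and 58.7% of all genes. Later enzymes of corticosterone synthesis differed widely in their counts. Cyp21a1 had 10 counts over the 46 samples, while the steroid dehydrogenases Hsd3b2 and Hsd3b3 had 23804 and 74619. Nr0b1, a gene of the list that is not an enzyme, had 0. Cyp11b1, which makes corticosterone and was singled out after its values were seen, had 108 counts in 21 samples. Its means were 0.174 ± 0.0795 and 0.254 ± 0.0697 CPM at day 0 and week 3 in the duodenum and 0.228 ± 0.0909 and 0.278 ± 0.128 CPM in the ileum (SD, n = 3 each), and 0.0549 CPM or less in every other group. Its rise from week 2 to week 3 was called in both regions, while Cyp11a1 fell at that step, and rests on few counts. Hsd3b3, a steroid dehydrogenase with near-identical copies that can share its reads, fell between day 0 and week 4 with log2 changes of -2.35 and -2.69, from 73.2 ± 7.12 to 14.4 ± 2.73 CPM and from 67.5 ± 9.45 to 10.5 ± 3.27 CPM (SD, n = 3 each). Nr0b2, a repressor of the steroid-gene activator Nr5a2, fell at week 3 with a change of -2.31 in each region. Fdx1 and Por, which pass electrons to steroid-cutting enzymes, rose at week 3 by 1.02 and 0.97 in the duodenum and 0.78 and 1.23 in the ileum.

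Likeness of pattern was measured as Pearson's r of group mean log2 CPM over the 16 groups, which share libraries, among 12356 other genes, and is a description. Fkbp5 had few close matches, since 8 genes reached an r of 0.8, the nearest being Ubald2 (0.874), Rab4a (0.850) and Xpa (0.844). Xpa was also near Zbtb16 (0.922), after Ndrg1 (0.938) and before Slc35e3 (0.893). Sgk1 was most like Sult1d1 (0.910), Wwc1 and Gramd1b, and Tsc22d3 most like Pcyt1a (0.891), Eps8l3 and Gjb1. For Nr3c1 234 genes reached 0.8, led by Cdcp1 (0.956), Tlr3 and Csnk1g3, and for Hsd11b2 213, led by Kif13a (0.952), Jakmip1 and Sort1. Cyp11a1 had 366, led by Kif3a (0.966), Klhl13 and Aldh7a1. The nearest to Hsd11b1 were Laptm5 (0.935), Arhgap30 (0.932) and Cd53 (0.929), of which Laptm5 and Cd53 are genes of blood-derived cells. Among the 8 themselves, r was 0.848 between Fkbp5 and Zbtb16 and 0.824 between Sgk1 and Tsc22d3. Between Nr3c1 and Fkbp5 it was -0.06, between Nr3c1 and Hsd11b2 0.862, and between Nr3c1 and Cyp11a1 -0.72.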

How the data were processed

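The count table holds the authors' estimated counts per gene, deposited as whole numbers. The submitters' processing notes name STAR 2.6.1d, Salmon 0.14.2, DESeq2 1.30.1 and the build mm10, without roles or settings. In the authors' deposited normalized tables, each signal value equals the estimated count divided by 1 size factor per sample, and those tables, which hold 40 samples and no day 4, served here for gene symbols only (51106 identifiers). Gene positions are from GENCODE M21 on GRCm38, which holds 54495 of the 54532 identifiers, and promoter sequences are RefSeq's on GRCm38.p6.

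The 8 genes, the gene lists and the tests were chosen with earlier results of these data known. All 8 genes are named in every comparison. In each list the 4 genes with the smallest age effect p were to be named, and further genes were named after their values were seen.

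The test on the counts of 46 samples was that of edgeR 4.0.16 (R 4.3.3). It kept the 21986 genes passing filterByExpr, libraries were scaled by TMM, and a robust quasi-likelihood model with 1 mean per group was fitted and checked on simulated data. There were 19 comparisons, each adjusted by Benjamini-Hochberg over all genes, and genes under 0.05 are called. SE is the size of the log2 change over the square root of its F statistic. Log2 CPM used a prior count of 2. With 3 samples per group, precision is limited by the spread between samples. Alternatives were relative log expression scaling, no filter, a mean count of at least 10, DESeq2 1.42.0, the compared groups alone, a replicate block, a sex index, other sample sets and leaving out each sample. Leaving out the day 0 duodenum samples numbered 2 and 3 was chosen after seeing the data, as were the gene lists without these or without the week 4 ileum sample numbered 1.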

Additional observations from a re-analysis of the deposited data

Results flagged for a closer look

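For 3 of the 8 genes the course over age differed between duodenum and ileum by a test of the interaction itself. The edgeR adjusted p was 0.00115 for Hsd11b2, which rose by day 8 in the duodenum and at week 3 in the ileum. It was 0.00277 for Cyp11a1, whose log2 change from day 0 to week 4 was -6.48 in the ileum and -3.08 in the duodenum. The means went from 6.06 to 0.0771 CPM in the ileum and from 0.850 to 0.0954 CPM in the duodenum. Both regions thus ended near the limit of counting, from unlike levels at day 0. It was 0.0156 for Hsd11b1, whose change from day 0 to week 4 was 3.56 in the ileum and 0.79 in the duodenum, the latter not called (edgeR adjusted p = 0.261). With the day 6 samples numbered 3 kept under their labels, the calls of Hsd11b1 and Cyp11a1 were lost (edgeR adjusted p = 0.186 and 0.145), and that of Hsd11b1 also without the day 0 duodenum samples numbered 2 and 3 (adjusted p = 0.0509). All 3 genes are at low counts, with 1 to 38 per sample for Hsd11b1, 9 to 433 for Hsd11b2 and 0 to 448 for Cyp11a1.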

How the results depend on the processing

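Over the 8 genes and 19 comparisons, 3066 of 3185 repeated tests gave the same call as reported, 50 lost one, 69 gained one and 0 reversed a called direction. The number of the 8 genes called moved by over 1.5 times as follows, and the cause was not tested. For week 2 against day 8 in the ileum it was 3 with only the compared groups. For week 4 against week 3 in the ileum it was 3 with the sex index and 2 with only the compared groups. In the fit of only the compared groups Tsc22d3 lost its call. Hsd11b1 and Cyp11a1 failed the count filter there, and a gene that was not tested counted as not called. For ileum against duodenum at day 0 it was 0 without the day 0 duodenum samples numbered 2 and 3. At week 2 it was 2 without day 4, 2 with the replicate block and 4 with only the compared groups. At week 4 it was 0 with the day 6 samples numbered 3 kept, 0 with only the compared groups, 2 without day 4 and 2 with the block. Averaged over ages it was 2 with the day 6 samples kept. For the interaction it was 1 with them kept, 6 without day 4, 5 with the block and 5 by DESeq2. Leaving out single samples gave 3 to 5 for week 4 against week 3 in the ileum, 0 to 2 for the regions at week 4 and 3 to 5 for the interaction.

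Same-numbered duodenum and ileum samples deviated together only weakly (mean r 0.076 over 23 pairs, 9 of them over 0.1). Differently numbered samples of the same age had a mean r of -0.0394 over 44 pairs, 6 of them over 0.1. The number was not taken to pair samples in the main fit. Whether same-numbered samples share an animal is not said by the labels and was not settled here. All 24 same-numbered pairs were alike in whether Xist was above 100 CPM, 15 of them at the 5 ages with both kinds. The replicate block joined samples of the same age and number for the comparisons of regions and the interaction. For the other comparisons it joined samples of the same number across ages within a region, which does not bear on the pairing of regions. With the replicate block 142 of 152 tests kept their call, 2 lost it and 8 gained it. All of the changed calls were in comparisons of regions or the interaction. The calls lost were the regional differences of Nr3c1 at day 8 (adjusted p = 0.0501) and Hsd11b2 at week 4 (0.0902). Gained were those of Fkbp5 at day 8 (0.00227), of Tsc22d3 at day 8, week 2 and week 4 (0.0498, 0.0237 and 0.00746), of Sgk1 at week 4 (0.0269) and of Zbtb16 averaged over ages (0.00947), and the interactions of Tsc22d3 and Sgk1. Hsd11b1 had too few counts for the filter on a mean count of 10.

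Over all genes the number called for the interaction was 4930, and 947 with the day 6 samples kept or 9512 without day 4. Week 2 against day 8 had 3448 and 1460 calls in duodenum and ileum. With the day 6 samples kept these were 1528 and 417, and with only the compared groups 6278 and 3472. The ileal count was 886 without the filter and 3037 without day 4. Week 4 against week 3 had 2794 and 3534, with 4568 in the duodenum without day 4 and 1527 in the ileum with only the compared groups. The share of higher calls for the duodenal step was 61%, and 49.8% with the filter on a mean count of 10 or 41.2% without day 4. For the ileal step it was 51.4%, and 66% with only the compared groups. Between regions there were 1342 calls at day 0, with 894 without the filter, 578 with the day 6 samples kept and 2419 without day 4. At week 2 there were 4922, with 2561 and 7426 with the day 6 samples kept and with only the compared groups. At week 3 there were 3117, with 1376 and 5585 with the day 6 samples kept and without day 4, and the share higher in ileum went from 51.3% to 40.7% with the filter on a mean count of 10 and 33.4% without day 4. At week 4 there were 6234, and 2491 with only the compared groups. Without the day 0 duodenum samples numbered 2 and 3, day 8 against day 0 in the duodenum had 5870 calls in place of 9054 and week 4 against day 0 had 5521 in place of 8909. Of the gene lists, the 18 induced genes had 15 duodenal age effects called in place of 18 without them. Single samples left out took week 2 against day 8 as low as 825 in the duodenum and 60 in the ileum.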

Other observations

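Within the high groups, Fkbp5 and Zbtb16 varied widely between samples, and samples that share a number across regions stood in the same order. At day 0 the lowest Fkbp5 value was that of number 1 and the highest that of number 3 in both regions, with the highest 3.33 times the lowest in the duodenum and 3.54 times in the ileum. For Zbtb16 the same samples were lowest and highest, at 12.4 and 18.9 times. At week 3 the order was reversed in both genes and both regions, with number 1 highest and number 3 lowest, and the Fkbp5 ratios were 2.26 and 2.43. Over all tested genes, 24.5% had the same order in both regions at day 0 and 23.4% at week 3. The day 0 samples numbered 1 were the ones without Xist, at 4.20 and 2.04 CPM, and the week 3 samples numbered 1 the ones with it, at 616 and 972 CPM. With a sex index as covariate the Fkbp5 calls at all 4 steps between neighbouring tested ages were the same as without it in both regions. The share of counts from mitochondrial genes at day 0 stood in the same order as Fkbp5, at 17.3%, 23.0% and 29.8% in the duodenum and 15.9%, 23.3% and 24.2% in the ileum for numbers 1, 2 and 3. At week 3 it was 17.9%, 23.3% and 23.7% in the duodenum, the reverse of the Fkbp5 order, and 15.8%, 14.6% and 16.9% in the ileum. The part of sex and of this share in the spread was not tested further.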
